A study of Mus musculus with 28 samples.

Results

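The genes described here code for parts of the axoneme, the microtubule core of the sperm tail and of motile cilia: axonemal dynein chains, tektins, radial spoke proteins, central pair proteins and the ropporins. They were chosen by a rule on symbols that sets no threshold on values, though with earlier results of these data known. It takes every Dnah, Dnaic, Tekt and Rsph symbol followed by a number, leaving out 1 symbol of the Dnaic series. Dnali1, Dnal1, Dnal4, Spag6, Spag16, Spag17, Ropn1 and Ropn1l are added. The rule found 38 of the 43280 gene rows in the count tables. All but Dnah2os, an antisense RNA at the Dnah2 locus, are protein-coding in GENCODE M21.

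The study measured polyadenylated RNA in 28 mouse libraries by sequencing. Of these, 10 came from cells sorted for a red fluorescent protein (RFP) out of testes with germ cells, and 18 from the germ cell-deficient testes, taken whole, of NANOS2 KO animals with a CD1 background. All animals, the knockout included, had WIN 18,446, an inhibitor of retinoic acid synthesis, for 7 days, then an injection of retinoic acid, and were aged for 42 to 50 days, so that spermatogenesis ran in step along the tubules. The question of the design is how Sertoli cells, the somatic cells that nurse germ cells in the tubule, differ along the cycle with and without germ cells. The sorted mice were RFP heterozygotes positive for Amh-Cre, in which the promoter of the Sertoli gene Amh drives the recombinase that turns the reporter on. Their strain is given as C57BL/6 x 129s4/SvJae, except for replicate 1 of group A, given as C57BL/6 x Amh-Cre. The 5 groups of 2 libraries are named for the stages of the seminiferous cycle most enriched in them: A for stages XI-XII, B for I-III, C for IV-VI, D for VII-VIII and E for IX-X. The knockout has 2 libraries for each of 9 days. Nothing in the labels says that the 2 libraries of a group are separate animals, so the p-values measure the spread between these libraries.

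Total counts were 1901743 to 5279746 per sorted library and 1336742 to 4370138 per knockout library, so that 3 counts equal 0.568 to 1.58 and 0.686 to 2.24 CPM, the count scaled to the library total. Nanos2, the targeted gene, had 2 counts over all sorted libraries and 0 in the knockout, and so does not check the genotype labels. The 9 Sertoli markers (Sox9, Wt1, Gata4, Rhox5, Cldn11, Aard, Dhh, Fshr and Trf) summed to 2272 to 4388 CPM in sorted libraries and 2458 to 3088 CPM in the knockout, and none was at 0. The sorted libraries also held germ cell transcripts: 11 markers of elongating spermatids summed to 3031 to 16340 CPM and 9 of spermatocytes to 1363 to 2968 CPM. In the knockout these sums were 0 to 3.74 and 0 to 2.55 CPM, with 2 markers of each list at 0. Pooled over libraries, 26 of the 38 members (68.4%) were under 0.1 times their sorted level in the knockout and 5 (13.2%) were above it. For all genes compared these shares were 12.6% and 55.1%. The part of germ cell RNA in the levels below was not tested. In such bulk libraries, fewer cells of a type and less RNA per cell cannot be told apart.

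Motile axonemes have a ring of microtubule doublets around a central pair of single microtubules. Dynein motors sit on the doublets in outer and inner arms. Each arm holds heavy chains, which hydrolyse ATP and walk, and smaller intermediate and light chains, which anchor and regulate them. Radial spokes reach from the doublets to the central pair and pass on signals that time the motors, while tektins are filaments bound inside the doublet wall. In the testis the axoneme of the sperm tail is built by spermatids, whereas Sertoli cells carry no motile cilium.

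The promoters of the members were searched for the letters to which RFX factors, regulators of ciliary genes, bind, since genes of this family are described below. RefSeq windows of GRCm38.p6 were at hand for 33 of the 38 members, 37 windows in all, and the 250 bases before each transcription start were read. The X-box half-site GTTGCC, on either strand, was present in 10 of the 37 windows (27.0%), against 3425 of 32851 windows of all genes (10.4%). The 9 genes were Dnah10, Dnah7a, Dnah7b, Dnah7c, Ropn1l, Spag16, Spag6, Tekt1 and Tekt2. The full X-box was searched in a strict form only. This was the exact half-site, a short gap of fixed length and the half-site's reverse complement with a free base. That form was found in 0 members' windows and 0.244% of all windows, and the cAMP response element TGACGTCA in 1 (Dnah6; 2.7%) and 1.55%. Looser forms of the X-box, with other letters or gaps, were not searched, so the 0 does not speak for them. Each count is of letters in a window, not of binding, and near copies such as the Dnah7 genes share sequence. Overlapping windows of Tekt2 hold the same half-sites, so that locus was counted more than once. The 3 windows below hold 2 half-sites each and overlap no annotated exon; capitals mark GTTGCC or its reverse complement GGCAAC. In that of Spag16 the pair begins 111 and 103 bases before the window's end.
Spag16 (chr1:69826720-69826969, plus strand): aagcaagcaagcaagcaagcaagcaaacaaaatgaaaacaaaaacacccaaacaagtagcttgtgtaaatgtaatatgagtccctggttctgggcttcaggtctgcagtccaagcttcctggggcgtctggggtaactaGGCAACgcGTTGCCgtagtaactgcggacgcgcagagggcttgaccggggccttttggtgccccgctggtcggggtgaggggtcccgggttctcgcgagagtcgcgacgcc
Tekt2 (chr4:126325689-126325938, minus strand): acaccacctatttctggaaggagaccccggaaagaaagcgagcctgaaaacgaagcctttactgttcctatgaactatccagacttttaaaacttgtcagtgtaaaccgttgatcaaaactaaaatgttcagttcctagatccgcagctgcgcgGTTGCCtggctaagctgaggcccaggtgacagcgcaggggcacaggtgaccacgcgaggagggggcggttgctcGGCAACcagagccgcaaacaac
Tekt1 (chr11:72361883-72362132, minus strand): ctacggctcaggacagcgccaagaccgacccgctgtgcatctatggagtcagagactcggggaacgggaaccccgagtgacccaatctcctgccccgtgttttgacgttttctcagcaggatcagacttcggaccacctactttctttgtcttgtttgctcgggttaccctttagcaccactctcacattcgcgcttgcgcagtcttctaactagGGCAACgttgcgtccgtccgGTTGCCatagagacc

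Most of these genes were well represented in the sorted cells. Mean levels were 100 CPM or more for 8 members, 10 to 100 CPM for 23, 1 to 10 CPM for 4 and under 1 CPM for 3 (Dnah5, Rsph4a and Dnah2os). The members together took 2432 to 4968 CPM in the 10 sorted libraries (median 3251) and 159 to 222 CPM in the 18 knockout libraries (median 198). The sum did not separate the stage groups: A had 2432 and 4443 CPM, B 2708 and 3618, C 4968 and 2605, D 3150 and 3133, and E 3352 and 4102 (replicate 1, then replicate 2, here and below). The 2 lowest and the 2 highest sums all came from groups A and C, 1 of each from either group.

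**Figure D1:**
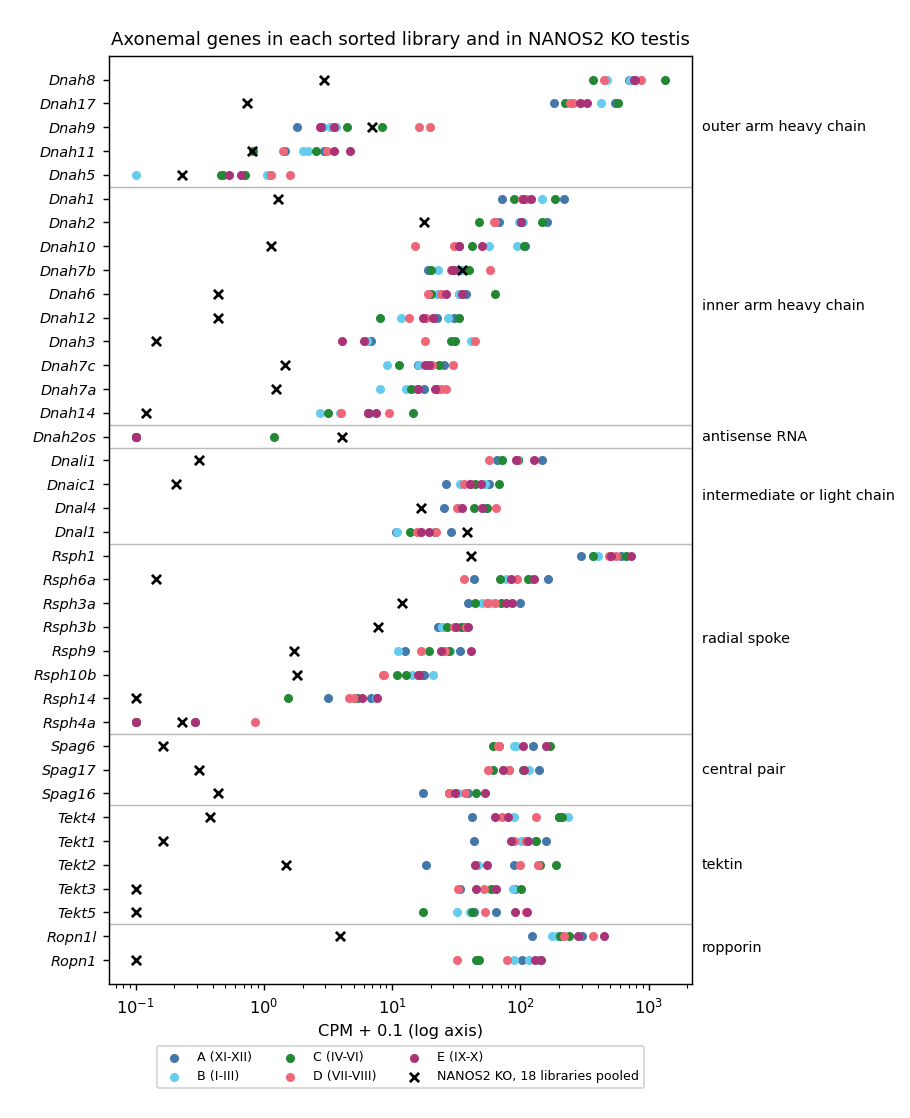
CPM + 0.1 on a log axis for each of the 38 genes (rows, ordered by role and mean level). Coloured points are the 10 sorted libraries, coloured by stage group, and crosses are the 18 NANOS2 KO libraries pooled. Most crosses lie far left of their points, while those of Dnah5, Rsph4a, Dnah7b, Dnah9, Dnal1 and Dnah2os lie among or right of them.

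Among the outer arm heavy chains, the pair known from the sperm tail dominated, and the 3 known from motile cilia were low. Dnah8 (chr17:30624354-30877365) had the highest level per length of this class, 27.0 CPM per kb of exon. It stood at 706 and 762 CPM in the libraries of A, 469 and 714 in B, 1343 and 370 in C, 866 and 449 in D, and 769 and 786 in E. The highest and the lowest of these 10 values are both from group C. Dnah17, its partner in sperm, ranged from 184 to 572 CPM (20.8 CPM per kb). By contrast Dnah9 had 0.412 CPM per kb, Dnah11 0.164 and Dnah5 0.0437. Neither Dnah8 (adjusted p = 0.953) nor Dnah17 (adjusted p = 0.862) passed the edgeR quasi-likelihood test over the 5 groups.

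The inner arm heavy chains stood lower than the pair of sperm outer arm chains per length. Dnah1, the most abundant at 9.67 CPM per kb, is a single-headed inner arm motor needed for sperm motility. It had 72.0 and 219 CPM in A, 112 and 147 in B, 185 and 89.0 in C, 109 and 103 in D, and 104 and 121 in E, so that the stage groups overlapped. Dnah2 and Dnah10, the heavy chains of the double-headed inner arm, ranged from 47.2 to 161 and from 14.9 to 108 CPM. Dnah6, Dnah12, Dnah3, Dnah7a, Dnah7b, Dnah7c and Dnah14, single-headed or less studied chains, had means between 6.39 CPM (Dnah14) and 31.7 CPM (Dnah7b). Dnah7a, Dnah7b and Dnah7c are near copies on chromosome 1 that share 7.48 to 16.5% of their exonic 100-base windows, and reads from shared sequence are of uncertain assignment.

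Of the intermediate and light chains, Dnali1, a light intermediate chain of inner arms, was the most abundant per length, at 43.0 CPM per kb. Its levels were 65.3 and 146 CPM in A, 72.0 and 95.5 in B, 96.1 and 71.6 in C, 57.0 and 93.3 in D, and 93.0 and 128 in E, with all groups overlapping. Dnal4, a light chain, had 18.5 CPM per kb, Dnaic1, an intermediate chain of the outer arm, 16.1, and Dnal1, a light chain of the outer arm, 2.60.

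All 5 tektins were present, at 33.6 to 66.3 CPM per kb. Tekt4, at 66.3 CPM per kb, and Tekt1, at 66.04, led the class. Tekt4 stood at 41.8 and 202 CPM in A, 88.9 and 236 in B, 209 and 199 in C, 71.1 and 133 in D, and 63.1 and 80.3 in E. Replicate 2 of A held 4.82 times the level of replicate 1, and the ratio of the highest to the lowest group mean was 2.85. The first is a ratio of single libraries and the second of means, so they are not on 1 footing. Tekt4 did not pass the edgeR test over the groups (adjusted p = 0.436), though it was called with no filter.

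Rsph1, a protein of the spoke head, had the highest level per length of all 38 genes, 363 CPM per kb. Its libraries gave 297 and 610 CPM in A, 404 and 366 in B, 671 and 369 in C, 552 and 489 in D, and 504 and 724 in E. Rsph6a, the spoke head protein of sperm, reached 37.1 CPM per kb, whereas Rsph4a, its counterpart in motile cilia, had 0.0308 CPM per kb, from 4 counts over all sorted libraries. Rsph3a and Rsph3b, near copies sharing 44.7 to 46.1% of their windows, had means of 64.1 and 30.6 CPM, whose split is therefore uncertain. Rsph9 and Rsph10b, further head proteins, averaged 24.0 and 14.2 CPM, and Rsph14 5.17 CPM. Rsph10b has copies outside the members and shares 2.74% of its exonic bases with Pms2 on the same strand, so its reads are also of uncertain assignment.

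Of the central pair genes, Spag6 was the most abundant per length (29.6 CPM per kb), followed by Spag17 (10.5) and Spag16 (4.98). Spag6 has a near copy outside the members, Spag6l, so the assignment of its reads is uncertain here and below. Spag6 gave 67.6 and 124 CPM in A, 88.3 and 92.0 in B, 171 and 60.9 in C, 68.1 and 67.2 in D, and 105 and 158 in E. The ropporins, which bind A-kinase anchoring proteins of the sperm tail, had 267 CPM per kb for Ropn1l and 69.1 for Ropn1. Ropn1l had 123 and 303 CPM in A, 193 and 177 in B, 241 and 205 in C, 217 and 365 in D, and 280 and 448 in E. For Rsph1, Spag6 and Ropn1l, as for Dnah8, the libraries of different groups interleaved, and the adjusted p over the groups was 0.814, 0.585 and 0.48 (edgeR).

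Along the cycle, 3 members differed among the stage groups: Dnah9, Ropn1 and Dnah3. That is 3 of the 35 members with enough counts to be tested, where the same edgeR test called 8.07% of all 14331 genes, so the share among members is near the background. At an unadjusted p under 0.05 there were 6, and DESeq2 called 4, the same 3 with Tekt5. Dnah2os, Dnah5 and Rsph4a were too low to test. For 29 of the 35 the largest ratio between replicates in any group was above the ratio of the highest to the lowest group mean. The first is the largest of several ratios of single libraries and the second a ratio of means, which favours the first. The medians of these ratios were 2.70 and 1.81. Replicate 2 exceeded replicate 1 in group A for 26 of 35 members (median ratio 2.06) and in group C for 6 of 35 (median ratio 0.634). The replicate ratios and counts were not taken over all tested genes, so they are not shown to be particular to the members.

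Dnah9 (chr11:65831282-66168551, minus strand), an outer arm heavy chain of motile cilia, was high in group D. Its levels were 1.72 and 2.72 CPM in A, 3.16 and 3.52 in B, 4.35 and 8.23 in C, 19.7 and 16.2 in D, and 3.41 and 2.63 in E. Both libraries of D lay above all 8 others, as they did for 6.53% of all tested genes, and those of C were next. The mean was 17.97 CPM ± 2.49 in D and 2.22 CPM ± 0.71 in A (SD, n = 2 each), and the adjusted p over the groups was 0.0068 (edgeR). Without replicate 1 of D it was 0.0752, and it ran from 0.00462 to 0.0485 when any other library was left out. Against the mean of the other groups, Dnah9 was higher in D by 2.32 on the log2 scale (SE 0.33, adjusted p = 0.00123), and it was called in D without each library in turn, with log2 changes of 2.17 to 2.47. The level rests on 224 counts over the 10 libraries.

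Some markers of other cells were also higher in D, where edgeR called 8.65% of all genes. Of 5 endothelial markers, 4 were tested and 2 rose in D, Tek (log2 3.12, SE 0.48, adjusted p = 0.00176) and Cdh5 (log2 1.80, SE 0.39, adjusted p = 0.0123; edgeR). The endothelial list summed to 28.3 to 40.0 CPM in D, 23.9 to 35.3 in C, 10.7 to 23.4 in A, B and E, and 83.5 to 177 in the knockout. Of 7 Leydig markers, 4 were tested and 2 rose in D, Hsd3b1 and Hsd17b3. That list summed to 35.4 to 50.2 CPM in D, 13.98 to 36.9 in the other groups and 2016 to 5863 in the knockout, and its defining genes Insl3 and Lhcgr were at 0 in every sorted library. Of 5 rete and duct epithelium markers, 3 were tested and 1, Cdh1, rose in D (log2 2.91, SE 0.47, adjusted p = 0.00205). That list summed to 49.5 to 52.3 CPM in D and 18.5 to 47.2 in the other groups. Of the 6 multiciliated cell markers present, 2 were tested and 0 were called in D, with 1 at an unadjusted p under 0.05 and 0 by DESeq2. Of these 2 genes 0 had a log2 difference above 0, and their median was -0.64. That list summed to 29.4 to 45.2 CPM in D and 20.4 to 140 in the other groups. Of 4 tested myoid markers 1 was above 0 in D, with a median of -0.36. The part of these cells in the Dnah9 level was not tested.

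Ropn1 (chr16:34649921-34678618, plus strand) was low in C and D. It had 104 and 142 CPM in A, 116 and 88.7 in B, 47.5 and 44.8 in C, 32.0 and 78.7 in D, and 130 and 146 in E. All 6 libraries of A, B and E lay above the 4 of C and D. This split was read from the values of Ropn1, and its share among all tested genes was not counted. The adjusted p over the groups was 0.0386 (edgeR), and the call was lost without either library of B, C or E or replicate 1 of D, with adjusted p from 0.0505 to 0.12. Against the mean of the other groups Ropn1 differed by -1.12 on the log2 scale in C (SE 0.31) and by -0.80 in D (SE 0.30). Neither passed edgeR's test, with adjusted p of 0.088 and 0.13, while DESeq2 called the difference in C. Some cell markers split the groups in the same way. The Sertoli list summed to 3607 to 4388 CPM in the 4 libraries of C and D and 2272 to 3155 CPM in the other 6. Of its 9 genes, 4 had a log2 difference above 0 in C and 6 in D, and edgeR called 1 in each. Among 11 elongating spermatid markers, Tnp1 had means of 212 to 849 CPM in C and D and 1702 to 2432 CPM in A, B and E. Those of Tnp2 were 285.5 to 625 and 1857 to 2140 CPM. The sum of that list did not split the groups so, with 7801 to 12220 CPM in C and 9979 to 13200 CPM in E. In C, 7 of the 11 had a log2 difference above 0. The part of these cells in the Ropn1 level was not tested.

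Dnah3 (chr7:119922671-120095280, minus strand), an inner arm heavy chain, was low in A and E. Its levels were 6.30 and 6.79 CPM in A, 6.31 and 41.3 in B, 30.8 and 28.6 in C, 17.9 and 44.4 in D, and 3.98 and 5.92 in E. The 2 libraries of B differed 6.55-fold, more than the 6.29-fold range of the group means. The adjusted p over the groups was 0.0437 (edgeR), and it was above 0.05, at 0.0712 to 0.182, without any 1 library of C, D or E. The log2 difference of E from the other groups was -2.02 (adjusted p = 0.15, not passed), and DESeq2 called it.

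**Figure D2:**
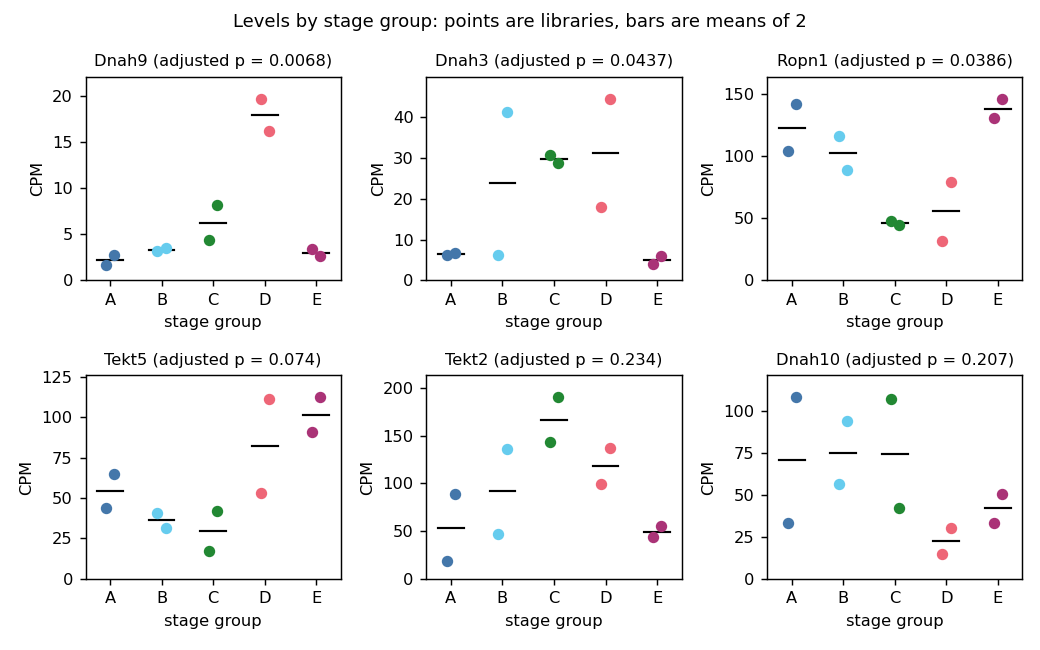
CPM in each of the 10 sorted libraries (points) by stage group, with the mean of 2 libraries as a bar, for Dnah9, Dnah3, Ropn1, Tekt5, Tekt2 and Dnah10; titles give edgeR's adjusted p over the 5 groups. Both D points of Dnah9 lie above every other point, and the 2 points of Dnah3 in B lie far apart.

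Tekt5 and Tekt2, tektins of the sperm tail, had group means at opposite ends in C, the lowest of Tekt5 and the highest of Tekt2, and neither passed the edgeR test over the groups. Tekt5 had 43.5 and 64.6 CPM in A, 40.5 and 31.7 in B, 17.4 and 42.0 in C, 52.9 and 111 in D, and 90.9 and 112 in E (adjusted p over the groups = 0.074). Tekt2 had 18.1 and 88.7 CPM in A, 46.8 and 136 in B, 143 and 190 in C, 99.4 and 137 in D, and 43.9 and 55.1 in E (adjusted p = 0.234). Both libraries of C lay above all others for Tekt2, as they did for 3.15% of all tested genes. For Tekt5, the libraries of D and E were 4 of the 5 highest, with 1 of D below 1 of A.

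By group, the tested members did not all have their highest mean in the same place. The highest group mean was in E for 11 of the 35, C for 10, A for 8, D for 5 and B for 1. For all tested genes these shares were 16.5% in E, 21.7% in C, 21.2% in A, 26.4% in D and 14.2% in B. The lowest mean was in D for 13 of the 35 (25.8% of all tested genes) and in B for 10 (18.1%). Some members of a role went together: Tekt1, Tekt2, Tekt3 and Tekt4 were highest in C, but Tekt5 in E. The near copies Dnah7a, Dnah7b and Dnah7c were highest in D. Whether members of a role share a course was not tested. Against the mean of the other groups, edgeR called 1 of 35 members in D, where it called 8.65% of all genes, and that member is Dnah9. It called 0 in A (1.67% of all genes), 0 in B (0.0419%), 0 in C (2.64%) and 0 in E (0.523%). At an unadjusted p under 0.05 there were 3 members in A, 1 in B, 4 in C, 6 in D and 4 in E, and DESeq2 called 0, 0, 1, 2 and 1. The median log2 difference of the tested members in D was -0.19, with 13 of 35 above 0, beside a median of 0.04 for all genes.

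**Figure D3:**
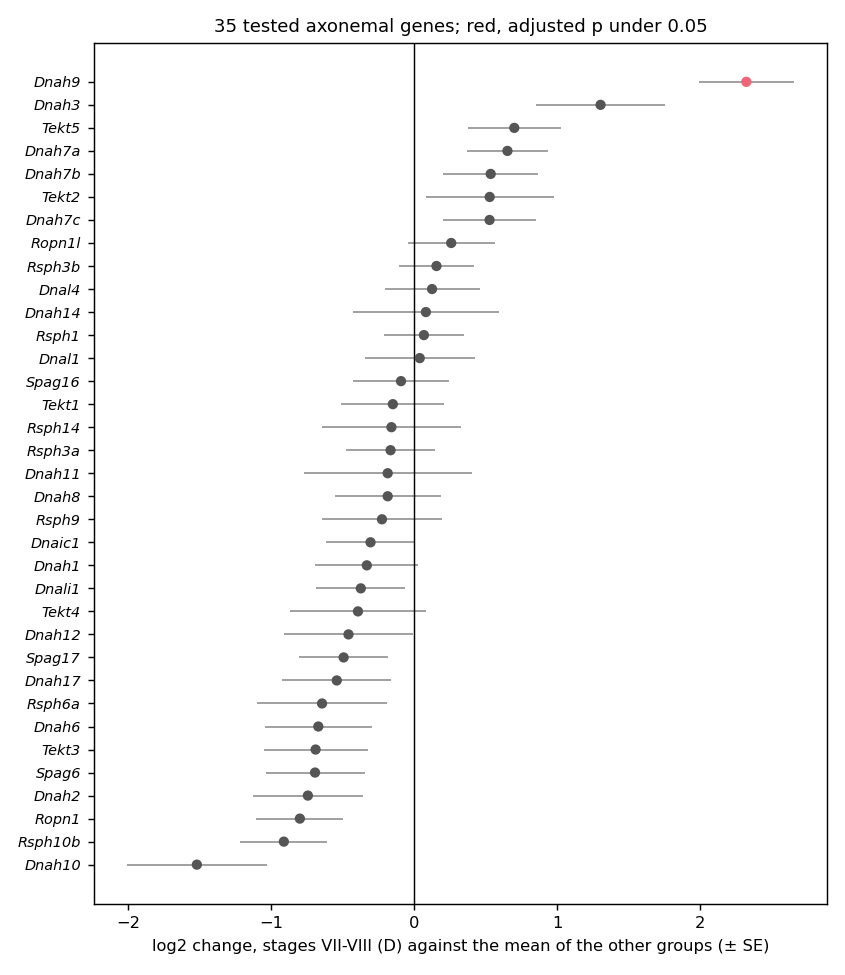
Log2 difference of group D from the mean of the other groups for the 35 tested genes (points, with bars of 1 SE), sorted by value. Dnah9 at 2.32 is the point past edgeR's threshold; 22 of the points lie below 0.

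Below Dnah9 in that comparison stood Dnah3 (log2 1.30, adjusted p = 0.0981), and at the other end Dnah10 (log2 -1.52, SE 0.49, adjusted p = 0.0746) and Rsph10b (log2 -0.91, SE 0.30, adjusted p = 0.0841), none of which passed. Dnah10 had 14.9 and 30.1 CPM in D and 33.0 to 108 CPM in the other 8 libraries. Rsph10b had 8.56 and 8.36 CPM in D and 10.9 to 20.8 CPM elsewhere. For both genes the libraries of D were the 2 lowest, as they were for 7.62% of all tested genes. DESeq2 called Dnah10 but not Rsph10b. In the same comparison 7 of 11 elongating spermatid markers fell in D, Tnp1 (log2 -2.98) and Prm1 (log2 -3.42) with the smallest p, with list sums of 3031 to 3989 CPM in D and 7801 to 16340 CPM in the other groups, and the sum of the members was 3133 to 3150 CPM in D. Of 6 round spermatid markers 2 rose in D (Catsper3 and Izumo1), while Tssk2 had a log2 difference of -1.04 that edgeR did not call (adjusted p = 0.0624) and DESeq2 did. The round spermatid list summed to 237 to 427 CPM in D, within the 191.5 to 638 CPM of the other groups. Of 9 spermatocyte markers Piwil1 rose and Ccna1 fell, and of 9 Sertoli markers Rhox5 rose. edgeR called 0 of 6 spermatogonial (Dmrtb1 and Stra8 the most expressed) and 0 of 4 tested myoid markers (Acta2, Myh11) in D, with 1 and 0 at an unadjusted p under 0.05 and none by DESeq2, and the macrophage markers were too low to test. The part of these cells in the member levels was not tested.

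Other genes that build or carry the axoneme, and cytoplasmic dynein genes, were read over the 5 groups beside the 8.07% of all genes that edgeR called. It called 0 of 10 tested dynein arm assembly genes (such as Dnaaf1 and Zmynd10), 0 of 7 docking and ruler genes (Ttc25, Ccdc40), 0 of 7 genes of the nexin-dynein regulatory complex (Tcte1, Ccdc65), 0 of 8 central pair and scaffold genes (such as Meig1), 0 of 20 intraflagellar transport genes (Ift140, Ift172) and 0 of 25 cytoplasmic dynein and dynactin genes (Dync1h1, Dynll2). At an unadjusted p under 0.05 there were 0, 0, 2, 1, 2 and 3, and DESeq2 called 0, 0, 2, 1, 0 and 1, in the same order of lists. The genes DESeq2 called were Iqca and Tcte1, Meig1, and Dynll2. Meig1 had means of 134.9 CPM in C to 390.2 CPM in E (edgeR adjusted p = 0.0572). With 2 libraries a group, a gene that was not called is not shown to be level. In group D against the others, edgeR called 0, 0, 1, 0, 0 and 0 genes of these lists, in the same order, and 8.65% of all genes. That gene, Tcte1 of the regulatory complex, fell (log2 -1.86, SE 0.46, adjusted p = 0.0234). Its means were 34.1 CPM ± 9.80 in D and 149 CPM ± 122 in A (SD, n = 2 each). Among 11 tested transcription factors of ciliary and spermatid genes, edgeR called 1 over the groups, Myb (adjusted p = 0.0413). It also called 1 in D, the RFX factor Rfx3, which fell (log2 -1.27, SE 0.30, adjusted p = 0.0181). Rfx3 had 9.27 CPM ± 2.05 in D and 17.5 to 25.6 CPM as means of the other groups. Foxj1, the master regulator of motile cilia, had means of 26.25 CPM ± 27.9 in A, 71.9 CPM ± 74.2 in B, 74.8 CPM ± 10.6 in C, 27.6 CPM ± 7.49 in D and 6.40 CPM ± 0.05 in E (SD, n = 2 each), and did not pass (adjusted p over the groups = 0.0749).

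The germ cell-deficient testis gave the floor for these genes. Pooled over 18 libraries, 4 members were at 0 counts (Ropn1, Rsph14, Tekt3 and Tekt5), 16 were above 0 and under 1 CPM, 8 were at 1 to 3 CPM and 10 at 3 CPM or more. For 26 of the 38 (68.4%) the pooled level was under 0.1 times that of sorted cells, as it was for 12.6% of the 15776 genes compared. The joint edgeR fit called 33 of 35 tested members and 85.1% of all genes. In it, 31 of 35 tested members were lower in the knockout and 2 higher, where 47% of all genes were lower and 38% higher. Most tested members passed the filter through the sorted libraries, so these counts describe the members and test nothing about the list. The median log2 difference was -6.74, and -0.17 for all genes. With library totals as the only scaling the median of all genes was 0.21, a shift of 0.38, and 56.4% of the called genes were higher in place of 44.7%. For the members this setting gave 31 lower and 3 higher. The comparison sets whole knockout testis on a CD1 background against sorted cells of another strain, so genotype, tissue and strain cannot be told apart.

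**Figure D4:**
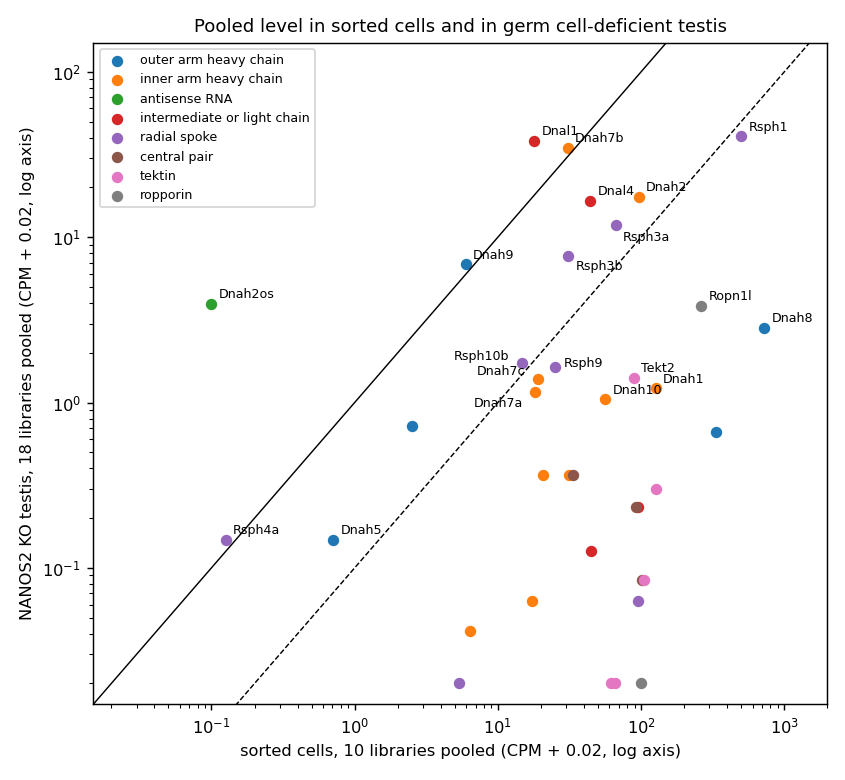
Pooled CPM + 0.02 of each of the 38 genes in the 10 sorted libraries (x) and the 18 NANOS2 KO libraries (y), both on log axes, coloured by role. The solid line marks equal levels and the dashed line 0.1 times the sorted level; genes at 1 CPM or more in the knockout, or under 1 CPM in sorted cells, carry their names.

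Many members, among them every tektin but Tekt2, the sperm spoke head gene Rsph6a and the 3 central pair genes, were under 1 CPM in the knockout. With a floor of 3 counts over the 18 libraries, sorted cells were at least 1560-fold higher for Ropn1, 1020-fold for Tekt5, 959-fold for Tekt3 and 82.5-fold for Rsph14 (counts of 0 allow up to 0.0641 CPM, counting error only). Rsph6a had 2 knockout counts against 3605 in sorted cells, a ratio of 2230 (exact 95% interval 617 to 18400, counting error only). Spag6 and Tekt1 had 3 counts each, with ratios of 1580 (541 to 7680) and 1640 (562 to 7970). Dnah3, with 2 counts, had a ratio of 405 (112 to 3350), and Dnah14, with 1, a ratio of 299 (53.2 to 11900). Dnah17 was at 0.641 CPM, 520-fold lower than in sorted cells, Tekt4 at 0.278 CPM (456-fold), Dnali1 at 0.214 (447-fold), Spag17 at 0.214 (430-fold) and Dnaic1 at 0.107 (416-fold). Dnah8 was at 2.82 CPM, with 132 counts spread over all 18 libraries (1.49 to 5.29 CPM), which was 256-fold lower. Dnah6, Dnah12 and Spag16 had 16 counts each, and Dnah5 and Rsph4a 6 each. For Rsph4a the ratio of sorted cells to knockout was 0.825 (0.171 to 3.48, counting error only).

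Members at 1 to 3 CPM stood in most knockout libraries. Dnah1 ran from 0 to 2.31 CPM (median 1.11), Dnah10 from 0 to 3.53 (median 0.573), Tekt2 from 0.496 to 3.74 (median 1.23) and Rsph9 from 0 to 3.47 (median 1.59). Rsph10b ran from 0.42 to 4.34 CPM, Dnah7a from 0 to 2.89 (median 1.14) and Dnah7c from 0.425 to 2.99 (median 1.24). Dnah11, at 0.706 CPM pooled, ran from 0 to 2.26. All but Dnah11 had every sorted library above every knockout library. How many of all genes were separated in this way was not counted, and the joint edgeR fit called 47% of all genes lower in the knockout.

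In the germ cell-deficient testis, 10 members were at 3 CPM or more. Rsph1 had a median of 41.3 CPM over the 18 libraries (30.5 to 52.9) and was 12.3-fold lower than in sorted cells. Dnal1 had a median of 38.6 CPM (25.4 to 50.0), Dnah7b 36.2 (22.7 to 40.2), Dnal4 16.7 (12.7 to 23.1) and Dnah2 16.3 (11.0 to 32.8). Rsph3a had a median of 11.96 CPM (6.36 to 14.1), Rsph3b 7.47 (3.35 to 11.96), Dnah9 6.68 (2.21 to 11.0) and Ropn1l 3.71 (1.69 to 5.63). Of these, Rsph1, Dnal4, Dnah2, Rsph3a, Rsph3b and Ropn1l lay lower in every knockout library than in any sorted library, with log2 differences of -3.98, -1.79, -2.82, -2.85, -2.38 and -6.42 (adjusted p from 1.26e-21 to 8.63e-12, edgeR). Such separation was not counted over all genes, so it is not shown to be particular to these members.

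Dnal1, the outer arm light chain, and Dnah2os rose in the knockout. Dnal1 stood at 10.7 to 28.5 CPM in sorted libraries, and 17 of the 18 knockout libraries lay above all of them, at a log2 difference of 0.72 (SE 0.14, adjusted p = 3.06e-05, edgeR). The same fit called 38% of all genes higher, and library separation was not counted for them. The call held without each library in turn and under every other setting, with log2 differences of 0.41 to 1.10. Dnah2os had 3 counts in sorted cells, all in replicate 1 of C, and 184 counts in the knockout, present in all 18 libraries (0.748 to 10.4 CPM). The ratio of sorted to knockout was 0.0202 (0.00412 to 0.0599, counting error only). Of its exonic bases, 312 (36.3%) overlap exons of Dnah2 on the opposite strand, and since the sources do not say that the counting used strand, reads of the pair cannot be told apart there. Dnah2 itself was 5.50-fold lower in the knockout. Markers of other somatic cells were higher in the knockout as well: all 7 Leydig, 5 endothelial and 5 myoid markers and the 4 macrophage markers in the tables rose, with myoid sums of 41.1 to 95.7 CPM in sorted and 559 to 784 CPM in knockout libraries and macrophage sums of 0.523 to 6.09 and 325 to 535 CPM. Their part in the levels of Dnal1, Dnah2os and the other members found there was not tested.

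The 3 near copies of Dnah7 had unequal levels in the knockout, a difference between copies that was not tested. Sorted cells held 30.7 CPM of Dnah7b, 18.2 of Dnah7a and 19.1 of Dnah7c as pooled levels, and the knockout 34.7, 1.13 and 1.37. The log2 difference was -0.25 for Dnah7b (SE 0.13, adjusted p = 0.0723), -4.46 for Dnah7a and -4.11 for Dnah7c, the latter pair called. For Dnah7b the sign depends on scaling, with 0.13 by library totals (adjusted p = 0.376). The exon model of Dnah7b is the longest of the 3, 19.98 kb against 12.77 for Dnah7a and 12.60 for Dnah7c.

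Dnah9 did not pass the test between the knockout and sorted cells, at a log2 difference of 0.03 (SE 0.17, adjusted p = 0.875, edgeR). Its knockout values of 2.21 to 11.0 CPM overlapped those of A, B, C and E and lay below both values of D. The sign turned without some libraries (-0.06 to 0.18), and library totals gave 0.41 (adjusted p = 0.0355). Markers of multiciliated cells were low in the knockout, with sums of 0 to 7.06 CPM over 6 genes, Ccno at 1.84 CPM, Foxj1 at 0.898 CPM, Mcidas at 2 counts and Cdc20b, Ccdc78 and Tmem212 at 1 count each over 18 libraries.

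Across the 9 days, none of the 11 members with enough knockout counts to be tested was called by edgeR, where 0.582% of 13065 genes were. At an unadjusted p under 0.05 there was 1, Dnah2 (edgeR, adjusted p = 0.438), and DESeq2 called 0. Dnah9 came next (adjusted p = 0.462). Dnah2 had its highest mean at day 48, from 26.9 and 29.7 CPM, while day 50 gave 32.8 and 13.0 CPM.

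**Figure D5:**
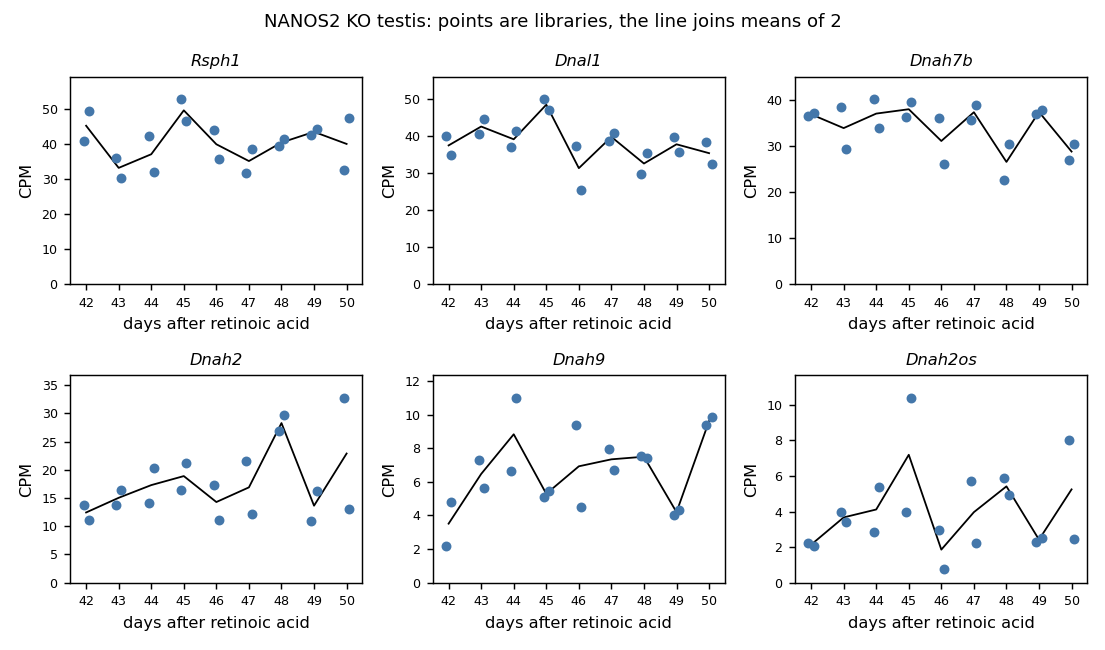
CPM in each NANOS2 KO library (points) by days after retinoic acid, with a line through the means of 2 libraries, for the 6 members Rsph1, Dnal1, Dnah7b, Dnah2, Dnah9 and Dnah2os; each axis starts at 0. The 2 libraries of a day are often as far apart as the days.

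The companion genes split in the knockout. All 10 tested dynein arm assembly genes, 7 of 7 docking genes, 7 of 7 genes of the regulatory complex and 7 of 8 central pair and scaffold genes were lower there, with median log2 differences of -2.97, -5.06, -6.01 and -4.78. Those of smallest p were Dnaaf1 (log2 -6.69) and Zmynd10 (-8.77), Ttc25 (-5.93) and Ccdc40 (-5.06), Ccdc65 (-6.01) and Iqcd (-5.97), and Meig1 (-4.76) and Cfap69 (-4.80). Beside these counts, the joint fit called 47% of all genes lower and 38% higher. In the knockout fit alone, 7, 3, 2 and 4 genes of these lists passed the filter. Others thus entered the joint fit through the sorted libraries, so the counts describe the lists and test nothing about them. Cfap54 was the central pair gene that rose, from 19.1 to 50.1 CPM as pooled levels. Of 20 intraflagellar transport genes 16 were lower, led by Kif17 and Ift172, and 1, Ift20, higher (median -1.11), and of 25 cytoplasmic dynein and dynactin genes 19 were lower, led by Dynll1 and Dynlt1a, and 2 higher, Dync1li2 and Dync1i1 (median -0.55, beside -0.17 for all genes). In that last list 1 gene, Dynlrb2, was under 0.1 times its sorted level, and Dync1h1, the cytoplasmic heavy chain, had 1035 CPM in sorted cells and 1016 CPM in the knockout. Of the 11 tested transcription factors, 10 were lower, led by Sox30 and by Rfx2, at 226 CPM in sorted cells and 4.02 CPM in the knockout, and 1, Mybl1, was higher.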

How the data were processed

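Polyadenylated RNA was read on an Ion Proton, per the labels' protocols, and the submitters' processing notes name Bowtie, TopHat, Cufflinks and mm10. How the authors counted, with which versions and annotation and whether by strand, is not given in the sources used here. Of the deposited tables, those with raw counts have 43280 gene rows. The deposited pair whose name says FPKM contains CPM as the authors made it, equal to count over library total within 0.0005 and without a gene length. Levels in the text are CPM by library total, and levels per kb use exon lengths of GENCODE M21 (GRCm38, the mm10 assembly). Spreadsheets had turned 27 symbols into dates, none a member. Both count columns of knockout day 42 carry the same header, so they have no replicate number and stay out of fits with a replicate block.

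Genes passing filterByExpr were fitted in edgeR 4.0.16 (R 4.3.3) after TMM scaling, and its quasi-likelihood F tests ran over 14331 genes in the sorted libraries, 13065 in the knockout and 15777 in a joint fit, with Benjamini-Hochberg adjustment over all genes tested and a threshold of 0.05. The scripts were tested on simulated data. Group contrasts set a group against the mean of the other 4. Alternatives were RLE scaling, library totals, no filter, DESeq2 1.42.0, the replicate block and leaving out each library. Depth sets precision: 3 counts equal 0.568 to 1.58 CPM per sorted library. Intervals are exact and, like floors of 3 counts, cover counting error only.

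The members and lists were chosen with earlier results of these data known. Values per library are given for members called along the cycle and for the most abundant member per kb of each role, and for Tekt5, Tekt2, Dnah10 and Rsph10b, chosen after their values were seen. Of other lists, counts are given with the called genes of smallest p, at most 2 a direction, or the 2 most expressed where none was called. This was done for pathway lists over the groups and in the knockout and for tested marker lists in D, and other comparisons of these lists are given by counts, sums or calls. A gene that the rule names is not reported here. The lists are dynein arm assembly, docking and ruler, nexin-dynein regulatory complex, central pair and scaffold, intraflagellar transport, transcription factors, cytoplasmic dynein and dynactin, and cell type markers. The label speaks of Sertoli cells for the knockout too, whose source is whole testis, and the extraction protocol speaks of sorted germ cells. All libraries were kept.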

Additional observations from a re-analysis of the deposited data

How the results depend on the processing

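The number of members called over the stage groups, 3 by edgeR, was 7 with no filter and 5 with the replicate block (the same 3 with Tekt5, adjusted p = 0.0202, and Tekt2, 0.0368), and 0 to 6 when 1 library was left out (0 without replicate 1 of D, 1 without replicate 1 of C or either library of E). With no filter the counts against the other groups were 2 in A, 5 in C, 4 in D and 5 in E, and 1 over the knockout days, in place of 0, 0, 1, 0 and 0. DESeq2 gave 1 in C, 2 in D and 1 in E, and the replicate block 1 in C (Tekt2) and 2 in D (Dnah9 and Dnah10, adjusted p = 0.0415 for the latter). Leaving out 1 library gave 0 to 1 in A, 0 to 2 in C, 1 to 2 in D and 0 to 1 in E. The counts in B and the 33 of the knockout against sorted cells stayed within 1.5 times under each setting run. Dnah7b turned to 0.125 with library totals and Dnah9 ran from -0.057 to 0.182 without single libraries, both as log2 differences of the knockout from sorted cells. Of the tests of single genes, 610 stayed on their side of the threshold, 31 passed it, 14 lost it and 6 turned sign. The replicate numbers are not known to mark shared animals. Replicate differences correlated over 0.1 in 6 of 10 pairs of sorted groups, the highest at 0.43, with the 4 pairs that include C at -0.11 to -0.03, and in 1 of 28 pairs of knockout days. Since not every pair was over 0.1, the fit without the block was kept, and same-numbered libraries may still share a source. Low counts limit Dnah5, Rsph4a and Dnah2os, which could not be tested along the cycle.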
